A study of Mus musculus with 18 samples.

Results

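The genes examined were 9 complement components and receptors of microglia, chosen by symbol from a count table of 55536 genes: the C1q chains C1qa, C1qb and C1qc, the components C3 and C4b, the complement receptor 3 subunits Itgam and Itgb2, and the anaphylatoxin receptors C3ar1 and C5ar1. They were measured by RNA sequencing of microglia pulled from the striatum of adult mice with magnetic beads against CD11b. There were 18 samples on a C57BL/6 background: 5 wild type (WT), 3 lacking Tyrobp (Tyrobp-/-), 5 from Q175 mice and 5 from Q175 mice lacking Tyrobp (Q175;Tyrobp-/-). Q175 is a knock-in model of Huntington's disease with an expanded CAG repeat in Htt, heterozygous per the study's methods, and both the Htt repeat and the Tyrobp deletion are present in every cell of the animal rather than in microglia alone. By the labels each sample came from 2 striata, whereas the methods state a single striatum. Females gave 1 WT, 2 Tyrobp-/-, 4 Q175 and 2 Q175;Tyrobp-/- samples. The comparisons ask whether complement transcripts of striatal microglia differ with the Q175 allele, with loss of Tyrobp, and with both together.

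Complement is a chain of plasma and tissue proteins that tags surfaces for removal. C1q, built from A, B and C chains, binds a target and starts the classical pathway, in which C4 and then C3 are cleaved and deposited. Microglia are the main source of C1q in the brain, and they carry complement receptor 3, the heterodimer of Itgam (CD11b) and Itgb2 (CD18), which recognises cleaved C3 and takes part in the engulfment of synapses during development and in disease models. C3ar1 and C5ar1 are G protein-coupled receptors for the small fragments released from C3 and C5. Tyrobp, also called DAP12, is the signalling adaptor of TREM2 and of other myeloid receptors, complement receptor 3 among them.

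Between 11260410 and 29771983 counts were assigned to genes per sample, and the 9 genes took between 0.248% and 0.701% of them. Values below are normalized counts, that is counts scaled by TMM library size to the mean total of 18373539. Tyrobp itself had 6239 ± 2128 normalized counts in WT (SD, n = 5) and 5219 ± 1206 in Q175 (SD, n = 5), against 368 ± 49.1 in Tyrobp-/- (SD, n = 3) and 241 ± 39.4 in Q175;Tyrobp-/- microglia (SD, n = 5). Each of 12 microglial markers, such as Tmem119, P2ry12 and Cx3cr1, exceeded 100 normalized counts in every sample. The geometric mean of the 12, the microglial marker level, lay between 11910 (Q175 replicate 4) and 30400 (Tyrobp-/- replicate 19). Markers of other cells were also present: the level of 12 astrocyte markers was between 404.5 and 719.6 in WT, 440.3 and 2261 in Tyrobp-/-, 913.9 and 2746 in Q175, and 459.5 and 1873 in Q175;Tyrobp-/- samples. That of 8 oligodendrocyte markers was between 1362 and 4237 in WT and between 2004 and 2930 in Tyrobp-/- samples. It was between 2283 and 6222 in Q175 and between 2065 and 4274 in Q175;Tyrobp-/- samples. Over all samples, 10 pan-neuronal markers were at levels between 190.7 and 1012. Markers of medium spiny neurons were between 117.7 and 763.2, and endothelial markers between 33.5 and 208.9. The 2 samples highest in astrocyte markers, Q175 replicate 14 and Tyrobp-/- replicate 20, also had 7.26% and 6.12% of their counts on mitochondrially encoded genes, where the others had between 0.62% and 2.83%. CD11b beads also bind other myeloid cells. The level of 7 border-associated macrophage markers was between 10.4 and 15.1 in WT, 28.2 and 29.9 in Tyrobp-/-, 8.55 and 47.6 in Q175, and 8.60 and 21.3 in Q175;Tyrobp-/- samples, with at most 2 of the 7 over 100 and at most 1 at 0 in a sample. That of 8 monocyte and neutrophil markers was between 7.82 and 139.1 in WT, 52.6 and 93.4 in Tyrobp-/-, 14.6 and 54.6 in Q175, and 22.8 and 74.5 in Q175;Tyrobp-/- samples, with at most 4 of the 8 over 100 and at most 2 at 0. Their part in the differences of the Tyrobp-/- group from WT and Q175;Tyrobp-/- microglia was not tested. In RNA from pooled cells, fewer cells of a type and less RNA per cell cannot be told apart.

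Levels of the 9 genes spanned a wide range when divided by the length of the longest protein-coding transcript. The C1q chains stood at the top, at 1124 ± 318 (C1qc), 1118 ± 282 (C1qa) and 1104 ± 337 (C1qb) CPM per kilobase (SD over n = 18), and differed from each other by far less than the spread between samples. Itgb2 (68.5 ± 23.2) and C3ar1 (64.0 ± 19.3) formed the next tier, followed by Itgam (25.3 ± 10.5), C4b (23.4 ± 10.1) and C5ar1 (16.9 ± 5.13), on the same scale. Neighbours within each tier overlapped in their ranges. The tier of Itgb2 and C3ar1 also overlapped with that of Itgam, C4b and C5ar1. The lowest Itgb2 value, 23.84, was below the highest of Itgam (40.44), C4b (43.03) and C5ar1 (27.15). The lowest C3ar1 value, 36.71, was below the highest of Itgam and of C4b. On this scale the lowest C1qb value, 522.6, was above the highest value of every gene outside the C1q trio. C3 was last at 0.679 ± 0.492, with a highest value of 2.05 that was below the lowest value of C5ar1, 10.7. Dividing instead by all annotated exons of a gene, which for C1qc include a non-coding transcript (1931 in place of 1203 bases), put C1qc at 700 and left the other 8 within the same tiers.

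**Figure D1:**
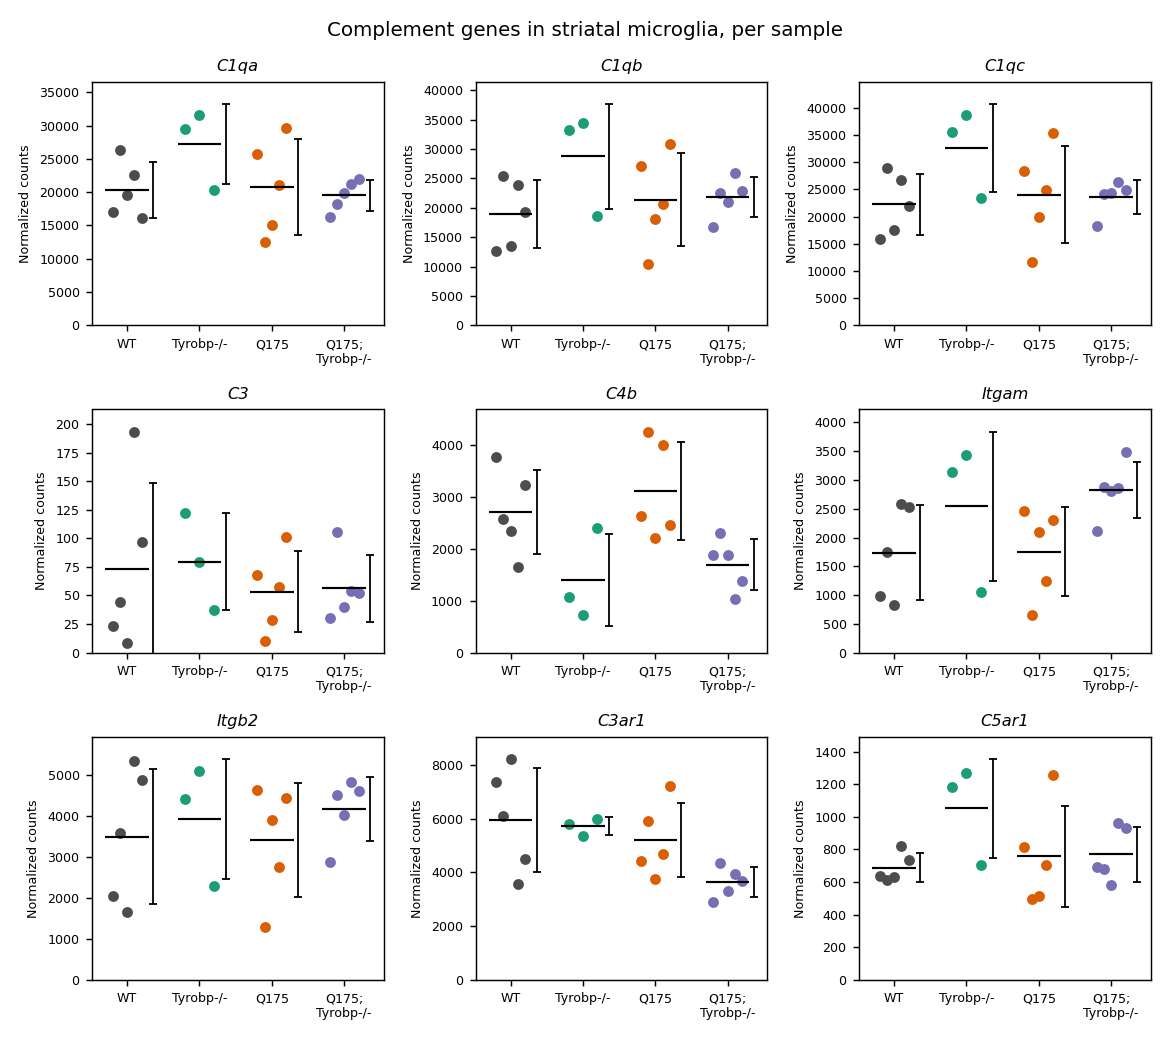
Normalized counts (vertical axes, linear from 0) of the 9 complement genes in each sample of the 4 genotype groups. Each point is a sample, horizontal lines are group means, and error bars are SD (n = 5, 3, 5 and 5), of which that of C3 in WT, 75.0 around a mean of 73.2, runs below 0. C3ar1 in the 5 Q175;Tyrobp-/- samples lies between 2904 and 4359, below all 3 Tyrobp-/- samples, and C4b in them exceeds a Q175 sample in 1 of 25 pairs. Of all genes tested, 9.04% separate Q175;Tyrobp-/- from Tyrobp-/- samples.

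C1qa, C1qb and C1qc lie next to each other on the minus strand of chromosome 4 (GRCm38), at chr4:136895917-136898803, chr4:136880129-136886187 and chr4:136889804-136893065. Since the 3 chains moved together across the samples, the promoters that could be read are shown, 300 bases from 250 before to 50 after the start as given by RefSeq on GRCm38.p6, minus strand, 5′ to 3′. That of C1qb is chr4:136886151-136886450 and that of C1qc is chr4:136892865-136893164. Capitals mark GAGGAAGT, a letter string bound by the myeloid factor PU.1, read on either strand (here as its reverse complement). It occurs at position 56 of the C1qc window and is not in the C1qb window, and 3.2% of 32851 promoters of this length hold it. A second string, TGANTCA of AP-1, is in 7.81% of them and in neither of the C1q windows.
C1qb: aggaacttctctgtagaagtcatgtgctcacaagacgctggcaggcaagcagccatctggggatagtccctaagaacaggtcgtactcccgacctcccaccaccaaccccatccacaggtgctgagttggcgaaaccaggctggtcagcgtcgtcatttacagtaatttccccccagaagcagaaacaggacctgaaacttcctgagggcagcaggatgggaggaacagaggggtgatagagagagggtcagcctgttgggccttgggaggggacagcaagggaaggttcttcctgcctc
C1qc: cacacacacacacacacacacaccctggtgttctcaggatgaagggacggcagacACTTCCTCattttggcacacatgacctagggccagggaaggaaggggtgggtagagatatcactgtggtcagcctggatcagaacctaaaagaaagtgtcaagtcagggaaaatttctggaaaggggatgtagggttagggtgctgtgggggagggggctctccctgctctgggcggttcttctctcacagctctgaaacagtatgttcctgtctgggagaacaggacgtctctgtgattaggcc

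C1qa had 16960, 26250, 19540, 22580 and 16160 normalized counts in the WT samples (replicates 1, 2, 6, 7 and 8). The Q175 samples (replicates 3, 4, 9, 14 and 17) had 25780, 12500, 15060, 21040 and 29680. Tyrobp-/- microglia (replicates 15, 19 and 20) had 29510, 31640 and 20370, and Q175;Tyrobp-/- microglia (replicates 5, 11, 12, 13 and 16) had 16210, 18270, 19910, 21280 and 21940, an order of replicates kept below. The highest value was that of Tyrobp-/- replicate 19, the Q175 samples spread over the widest range, and all groups overlapped. C1qb ranged from 10450 to 34350 and C1qc from 11660 to 38610, and for each of the 3 chains Q175 replicate 4 was the lowest and Tyrobp-/- replicate 19 the highest of the 18 samples. The same 2 samples were the lowest and the highest in microglial marker level.

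Per length, the chains stayed near 1 to 1 within a sample. The ratio of C1qb to C1qa was between 0.661 and 1.18 over the 18 samples, and that of C1qc to C1qa between 0.775 and 1.18. WT replicates 1 and 6 had the lowest ratios of C1qb to C1qa, 0.718 and 0.661. These ratios do not depend on the scaling of the libraries. That of C1qc to C1qa does depend on the length used. Divided by all annotated exons, the mean over the 18 samples was 700 CPM per kilobase for C1qc and 1118 for C1qa.

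None of the C1q chains passed the test in any comparison (edgeR quasi-likelihood test, FDR 0.1 over all genes). In Q175 against WT microglia their log2 fold changes were 0.02 ± 0.26 (SE) for C1qa, 0.16 ± 0.29 for C1qb and 0.10 ± 0.28 for C1qc. The 95% interval for C1qa ran from -0.53 to 0.57, so changes up to these bounds in either direction remain possible. In Q175;Tyrobp-/- against Q175 microglia they were -0.10 ± 0.22, 0.02 ± 0.24 and -0.03 ± 0.24, with an interval for C1qb from -0.51 to 0.55. With the microglial marker level as a term, chosen after seeing the data, they were -0.31, -0.27 and -0.30, which that fit did not call. In Tyrobp-/- against WT they were 0.41 ± 0.26, 0.59 ± 0.31 and 0.54 ± 0.28, with adjusted p values of 0.881, 0.819 and 0.81. In Q175;Tyrobp-/- against Tyrobp-/- they were -0.47 ± 0.17, -0.39 ± 0.21 and -0.45 ± 0.18, of which C1qa and C1qc had unadjusted edgeR p values of 0.0201 and 0.0344 and adjusted values of 0.313 and 0.343. The microglial marker level moved in the same direction: it was 28910, 30400 and 18580 in the Tyrobp-/- samples, between 16070 and 23820 in WT and between 18290 and 26370 in Q175;Tyrobp-/- samples, and with this level as a term the log2 fold changes in Tyrobp-/- against WT were 0.21, 0.15 and 0.21. That fit called C1qa (-0.40) and C1qc (-0.36) in Q175;Tyrobp-/- against Tyrobp-/-, where it called 15.8% of all genes. The interaction, that is the Q175 effect without Tyrobp minus that with Tyrobp, was -0.43 ± 0.32, -0.49 ± 0.39 and -0.49 ± 0.36 for the 3 chains.

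**Figure D2:**
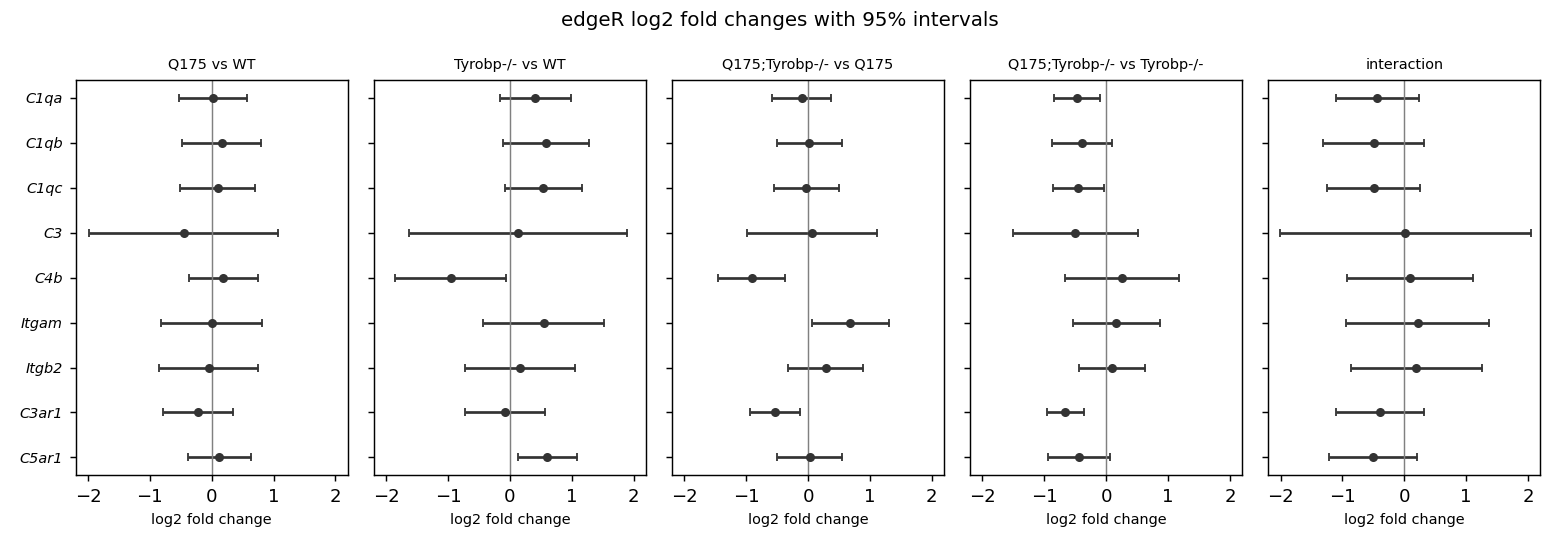
Log2 fold changes (horizontal axes) of the 9 genes in the 4 comparisons of genotype and for the interaction, with 95% intervals. These were derived from the F statistic of edgeR's quasi-likelihood test. In Q175 against WT every interval includes 0, and the intervals that leave out 0 elsewhere (C4b, Itgam and C3ar1 in Q175;Tyrobp-/- against Q175, for example) are not adjusted for the number of genes tested.

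C4b encodes the mouse C4 that is cleaved in the classical pathway, and it lies at chr17:34728380-34743882 on the minus strand. Of the 9 genes it had the largest log2 fold change, in either direction, both in Q175;Tyrobp-/- against Q175 and in Tyrobp-/- against WT. It had 2638, 4253, 2212, 3989 and 2449 normalized counts in the Q175 samples, and 1873, 2293, 1875, 1035 and 1387 in the Q175;Tyrobp-/- samples. A Q175;Tyrobp-/- sample exceeded a Q175 sample in 1 of 25 pairs, so the groups met at their edges only. The log2 fold change was -0.91 ± 0.25 (SE), a 0.532-fold level, with an unadjusted edgeR p of 0.00321 and an adjusted p of 0.533, and DESeq2's adjusted p was 0.235. C4b had 3758, 2568, 2340, 1645 and 3217 in WT and 1078, 715.3 and 2393 in Tyrobp-/- samples. In Tyrobp-/- against WT the log2 fold change was -0.96 ± 0.40 (edgeR, adjusted p = 0.698). It was -1.64 (adjusted p = 0.17) without Tyrobp-/- replicate 20, the sample with the high mitochondrial share, in which C4b was within the WT range, and -0.63 without Tyrobp-/- replicate 19.

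C4b was 2705 ± 813 in WT and 3108 ± 942 in Q175 (SD, n = 5 each), a difference of 0.19 ± 0.26 in log2 that was within the spread of the samples. Between Q175;Tyrobp-/- and Tyrobp-/- microglia it was 0.26 ± 0.40, and this value was 0.95 without Tyrobp-/- replicate 20 and -0.07 without replicate 19. Opposite to C1q, C4b was highest in Q175 replicate 4, the sample lowest in microglial markers, and lowest in Tyrobp-/- replicate 19, the sample highest in them. With the microglial marker level as a term, added after seeing these values, the log2 fold change of Q175;Tyrobp-/- against Q175 was -0.58 ± 0.21, and with a term for the combined markers of astrocytes, neurons and oligodendrocytes -0.92 ± 0.28.

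C4b has a close copy, C4a, at chr17:34809092-34823464, annotated as a processed transcript. Of the C4b coding sequence, 96.1% of 5204 aligned bases were identical in C4a, and 35.5% of its 50-base windows occurred there unchanged, so that short reads of either gene may have been lost or assigned to the other. The stretch of exon 21 in which they differ at 13 of 60 bases is shown, since reads from it tell the copies apart. It is chr17:34735430-34735489 in C4b and chr17:34816086-34816145 in C4a, minus strand of GRCm38, with differing bases in capitals.
C4b: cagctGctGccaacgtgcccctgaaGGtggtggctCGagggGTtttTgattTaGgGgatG
C4a: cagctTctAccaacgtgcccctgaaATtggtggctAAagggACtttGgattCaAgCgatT

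C4a took between 0.899% and 5.29% of the counts of both genes in a sample. It too was lower in Q175;Tyrobp-/- than in Q175 samples, at between 21.6 and 40.1 against between 33.0 and 123.6 normalized counts (log2 fold change -1.30 ± 0.37, edgeR unadjusted p = 0.00391, adjusted p = 0.533). With the counts of both genes summed, the log2 fold change of Q175;Tyrobp-/- against Q175 was -0.92 ± 0.25.

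C3, the central component on which all complement pathways converge, was low in these cells. It lies at chr17:57203970-57228136. Its normalized counts were 23.5, 44.7, 8.11, 193.4 and 96.6 in WT, 122.3, 79.1 and 37.7 in Tyrobp-/-, 67.9, 10.1, 28.9, 57.2 and 101.5 in Q175 and 30.1, 105.9, 39.9, 53.9 and 52.0 in Q175;Tyrobp-/- samples. The lowest and the highest value, WT replicates 6 and 7, came from the same group, and the 4 groups overlapped throughout. The log2 fold changes were -0.45 ± 0.71 in Q175 against WT and 0.07 ± 0.48 in Q175;Tyrobp-/- against Q175, with a 95% interval from -1.98 to 1.08 in the former, so a wide range of changes of C3 remains possible.

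Itgam and Itgb2 encode the alpha and beta chains of complement receptor 3. The beads used to collect the cells bind CD11b, the product of Itgam, so the cells in every group were selected for this protein. Itgam (chr7:128062640-128118491) had 991.1, 1745, 827.0, 2588 and 2533 normalized counts in the WT and 2459, 655.6, 2094, 1236 and 2305 in the Q175 samples. It had 3133, 3442 and 1058 in Tyrobp-/- and 2109, 2875, 2813, 2854 and 3479 in Q175;Tyrobp-/- samples. The Q175;Tyrobp-/- values were all at 2109 or above, whereas both groups with intact Tyrobp held samples below 1000 and Tyrobp-/- replicate 20 was at 1058.

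In Q175;Tyrobp-/- against Q175 microglia, Itgam differed by 0.69 ± 0.29 in log2 (higher in 23 of 25 pairs, edgeR unadjusted p = 0.0342, adjusted p = 0.533) and Itgb2 by 0.29 ± 0.28 (18 of 25 pairs, adjusted p = 0.631). The microglial marker level was 22400, 11910, 21070, 16730 and 26310 in the Q175 samples and 18290, 26370, 23530, 25430 and 26130 in the Q175;Tyrobp-/- samples, in the order of the replicates above. With this level as a term the difference of Itgam was 0.32 ± 0.16 and that of Itgb2 was -0.10. In Q175 against WT, Itgam differed by 0.0003 ± 0.38 and Itgb2 by -0.05 ± 0.37, and in Tyrobp-/- against WT by 0.55 ± 0.44 and 0.17 ± 0.40. With the microglial marker level as a term these last 2 values were -0.305 and -0.441, that is of the opposite sign. None of these passed the test.

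The balance of the 2 chains within a sample does not depend on library scaling. Per length, there were 3.24, 3.24, 3.16, 3.26 and 3.04 Itgb2 counts for each Itgam count in WT and 2.98, 3.13, 2.95, 3.53 and 3.03 in Q175 samples. The ratio was 2.15, 2.47, 2.26, 2.68 and 2.10 in the Q175;Tyrobp-/- samples, and 2.23 and 2.34 in Tyrobp-/- replicates 15 and 19. Every sample with intact Tyrobp was at 2.95 or above, and 7 of the 8 samples without it were at 2.68 or below. The exception was Tyrobp-/- replicate 20 at 3.41, the sample with 6.12% mitochondrial counts. Q175 replicate 14, with 7.26%, had the highest ratio of the 18 samples, 3.53. This ratio was looked at after the values of its members were known and was not tested. How many other pairs of genes separate the groups in this way was not counted.

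**Figure D3:**
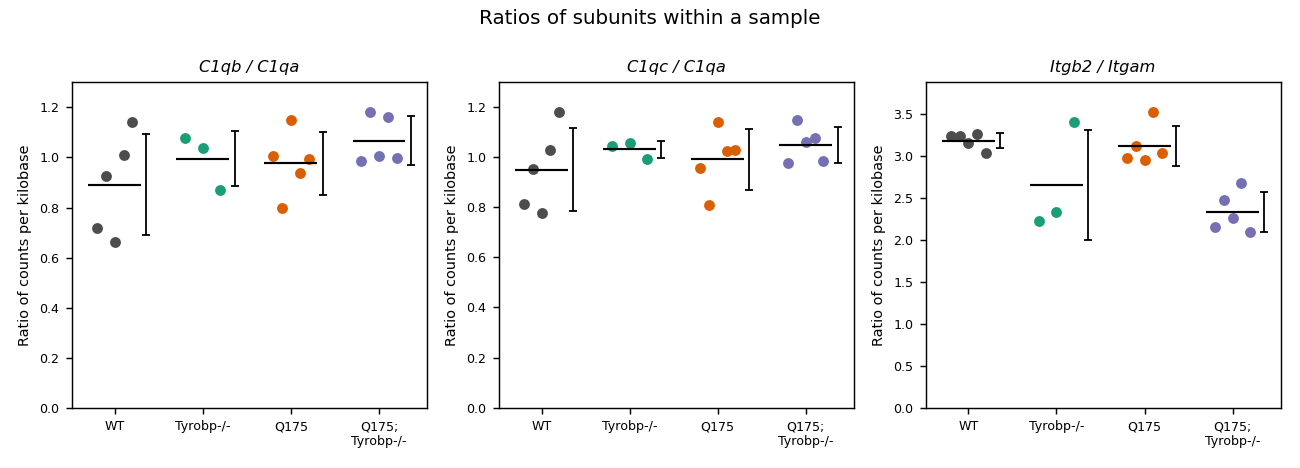
Ratios of counts per kilobase (vertical axes, linear from 0) of C1qb to C1qa, C1qc to C1qa and Itgb2 to Itgam in each of the 18 samples by genotype. Points are samples, horizontal lines are means and error bars are SD. The C1q ratios overlap between all groups, while Itgb2 to Itgam is between 2.95 and 3.53 in WT and Q175 samples and between 2.10 and 2.68 in Q175;Tyrobp-/- samples. It is between 2.23 and 3.41 in Tyrobp-/- samples.

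C3ar1, the receptor for the fragment C3a, lies at chr6:122847138-122856161. It had 5810, 5346 and 6000 normalized counts in the Tyrobp-/- samples, and 2904, 4359, 3320, 3934 and 3659 in the Q175;Tyrobp-/- samples. All 3 Tyrobp-/- samples were above all 5 Q175;Tyrobp-/- samples. Of all genes tested, 9.04% separated these groups in either direction. The border-associated macrophage marker level also separated these groups, with 28.2 to 29.9 against 8.60 to 21.3, and its part in the C3ar1 difference was not tested. The log2 fold change was -0.66 ± 0.13, with an unadjusted p of 0.000751 and an adjusted p of 0.291 by edgeR. DESeq2 on the same genes gave an adjusted p of 0.00596, the only call of any of the 9 genes by either tool in fits without a covariate. In this comparison DESeq2 called 3.84% of all genes. C3ar1 was also lower in Q175;Tyrobp-/- than in Q175 samples, which had 4428, 5905, 3734, 4689 and 7219, with Q175;Tyrobp-/- higher in 2 of 25 pairs (log2 fold change -0.53 ± 0.18, edgeR unadjusted p = 0.0127, adjusted p = 0.533). The Q175;Tyrobp-/- group is the same in both comparisons.

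In WT, C3ar1 was 7351, 6107, 8225, 3547 and 4509, the widest spread of the 4 groups, and WT overlapped with each of the others. Its log2 fold change was -0.22 ± 0.26 in Q175 against WT and -0.07 ± 0.29 in Tyrobp-/- against WT, and its interaction was -0.39 ± 0.34 (edgeR, adjusted p = 0.754). A Q175 effect on C3ar1 that differs with Tyrobp was thus not shown. The extremes of C3ar1 did not fall on those of the microglial marker level: its highest value was in WT replicate 6, at a level of 16070, and its lowest in Q175;Tyrobp-/- replicate 5, at 18290.

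C5ar1, the receptor for C5a, is on chromosome 7 (chr7:16246743-16259540), 14.2 Mb from Tyrobp, while Itgam is 97.6 Mb from it on the same chromosome. C5ar1 had 1185, 1267 and 702.7 normalized counts in Tyrobp-/- and 639.9, 610.3, 628.4, 820.4 and 733.5 in WT samples. In 2 of the 3 Tyrobp-/- samples it was above every WT sample. The log2 fold change was 0.60 ± 0.21 (edgeR unadjusted p = 0.0173, adjusted p = 0.61), and 0.79 ± 0.18 without Tyrobp-/- replicate 20 (adjusted p = 0.17), and it was 0.46 without Tyrobp-/- replicate 19. The microglial marker level was 28910, 30400 and 18580 in Tyrobp-/- replicates 15, 19 and 20. With this level as a term, chosen after seeing the data, the log2 fold change of C5ar1 was 0.33. C5ar1 was 757 ± 308 in Q175 and 771 ± 169 in Q175;Tyrobp-/- microglia (SD, n = 5 each), a log2 difference of 0.03 ± 0.24 with a 95% interval from -0.50 to 0.55. Its interaction, -0.50 ± 0.34, had the smallest unadjusted p of the 9 genes, 0.158.

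**Figure D4:**
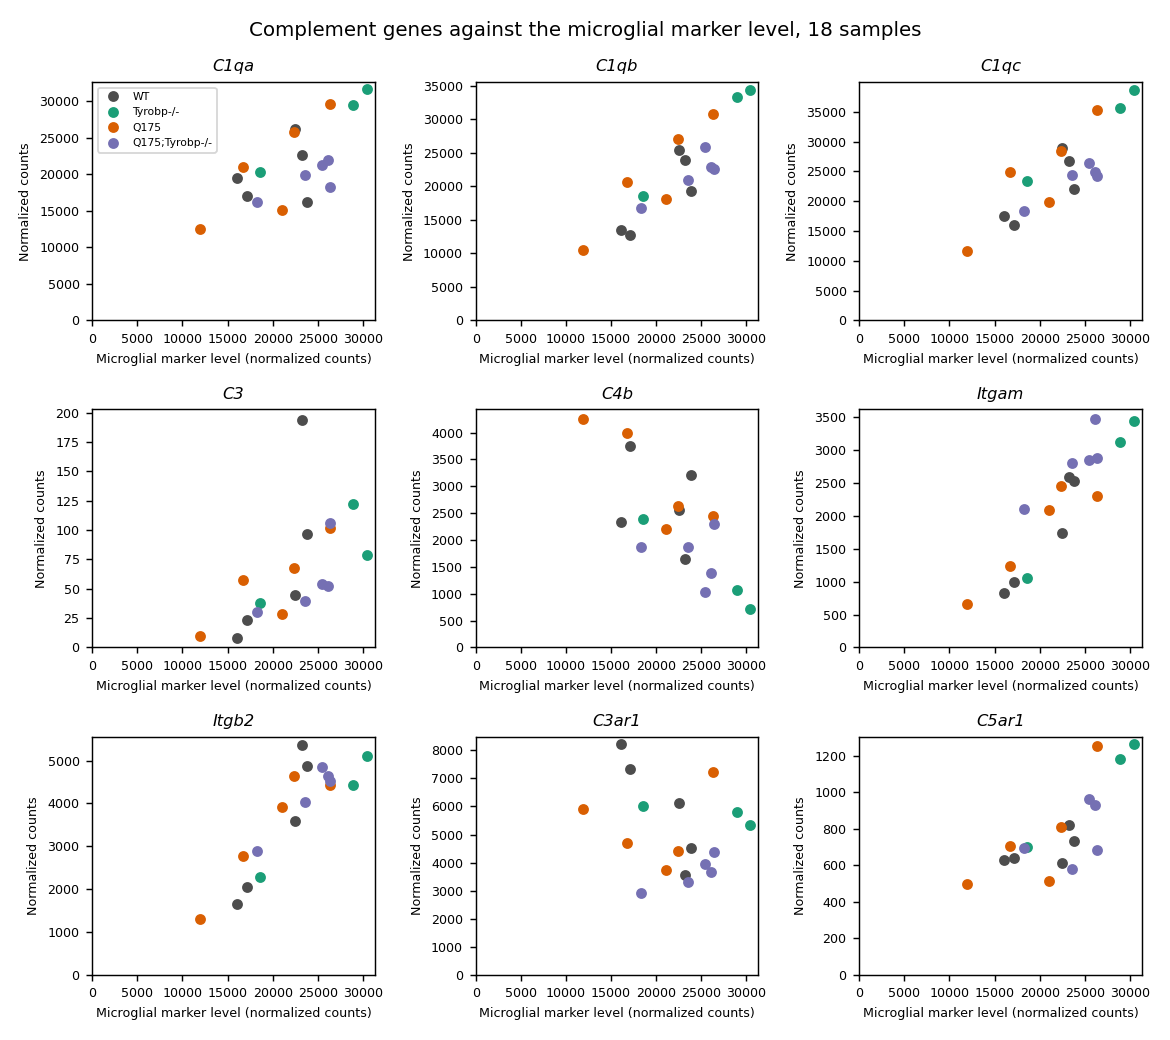
Normalized counts of each of the 9 genes (vertical axes) against the microglial marker level, the geometric mean of 12 markers (horizontal axes, normalized counts), with a point for each of the 18 samples coloured by genotype. Q175 replicate 4, at a level of 11910, is the lowest sample for 6 genes (the C1q chains, Itgam, Itgb2 and C5ar1) and the highest for C4b.

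Over the 9 genes, edgeR called none in any comparison at an FDR of 0.1. In Q175 against WT, 0 of 9 were called where 0% of 18266 genes were, 0 had an unadjusted p under 0.05 against 6.24% of all genes, DESeq2 called 0 against 1.28%, and for 0 did the groups fail to overlap, against 1.16%. The median log2 fold change of the 9 was 0.02, beside -0.02 over all genes tested. In Q175;Tyrobp-/- against Q175 the share called over all genes was 0.0111% by edgeR and 0.227% by DESeq2, and neither called a member. With an unadjusted p under 0.05 there were 3 of 9 (C4b and C3ar1 lower, Itgam higher) where 8.01% of all genes had one, no member separated the groups completely against 0.853% of genes, and the medians were 0.02 and -0.05.

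In Tyrobp-/- against WT, 0 of 9 were called by edgeR (0.0222% of all genes) and 0 by DESeq2 (0.932%), and 2 had an unadjusted p under 0.05 (6.82%), C4b lower and C5ar1 higher. No member separated these groups, against 4.50% of all genes, and the median of the 9 was 0.41 beside 0.02. In Q175;Tyrobp-/- against Tyrobp-/-, edgeR called 0 (0%) and DESeq2 called C3ar1 (3.84%), 3 had an unadjusted p under 0.05 (13.2%), all of them lower, and 1 separated the groups (9.04%). The median was -0.44 beside -0.01 over all genes. For the interaction, edgeR called 0 (0%) and DESeq2 0 (0.0107%) and none of the 9 had an unadjusted p under 0.05 (6.01% of all genes).

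A further 50 complement genes were followed: other classical, lectin, alternative and terminal pathway components, regulators and receptors. Of these, between 22 and 26 reached the expression limit in a comparison. The proteases C1ra and C1s1, which act with C1q, had group means up to 22.7 and between 0.978 and 4.17 normalized counts, and C2, the partner of C4, between 8.28 and 13.8. The alternative pathway genes Cfb and Cfd, the inhibitor Cfi, and the terminal components Hc (C5), C6 and C9 had group means below 3. Cfp, the remaining alternative pathway gene followed, had group means between 74.8 and 127.9. Cr1l (Crry), a membrane inhibitor of complement, was in contrast abundant, with group means between 1966 and 2587.

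edgeR called none of these genes in any comparison. In Q175 against WT, DESeq2 called 1 of the 26 tested, Clu, where it called 1.28% of all genes. Clu, the chaperone clusterin that blocks the terminal complex and is an astrocyte product in the brain, had 513.6, 604.1, 454.0, 1143 and 914.6 normalized counts in WT and 3092, 1100, 1616, 6309 and 1687 in Q175 samples. The Q175 value was higher in 24 of 25 pairs (log2 fold change 1.92 ± 0.44, edgeR adjusted p = 0.345, DESeq2 adjusted p = 0.0104). Both Clu and the astrocyte marker level had their highest value in Q175 replicate 14, and the astrocyte marker ranges of WT and Q175 did not overlap. In Tyrobp-/- against WT, Clu differed by 1.65 ± 0.48 (edgeR adjusted p = 0.565), and its interaction was -1.92 ± 0.83 (edgeR adjusted p = 0.716). Clu was 719.3, 1837 and 4229 in Tyrobp-/- replicates 15, 19 and 20, where the astrocyte marker level was 440.3, 853.8 and 2261. The part of astrocyte RNA in the Clu differences was not tested.

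Cr1l was between 2553 and 2641 in Tyrobp-/- and between 1709 and 2491 in Q175;Tyrobp-/- samples, without overlap (log2 fold change -0.40 ± 0.13, edgeR adjusted p = 0.294). Of all genes tested, 9.04% did not overlap between these groups. Itgax, the alpha chain of complement receptor 4 (CD11c), had 338.2, 147.0, 227.2, 597.7 and 887.5 in Q175 and 64.7, 327.0, 142.4, 141.3 and 150.6 in Q175;Tyrobp-/- samples. It was -1.42 ± 0.47 in this comparison and -1.56 ± 0.63 in Tyrobp-/- against WT (edgeR adjusted p values of 0.533 and 0.676). Cd59a, which blocks pore formation, was under 50 normalized counts in every sample, with log2 fold changes of 1.30 ± 0.57 in Q175 against WT and -1.66 ± 0.57 in Q175;Tyrobp-/- against Q175 (edgeR adjusted p values of 0.748 and 0.533).

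The genes whose log2 CPM ran most alike over the 18 samples were found for each member, as a description of samples that share their genotype and purity. The mean of the C1q chains was closest to Coro1b (Pearson r = 0.958), Coro1a (0.953) and Yif1b (0.95), of which the first pair encode actin-binding coronins. Itgb2 was closest to Ncf1 (0.992), a subunit of the phagocyte NADPH oxidase, and to Arpc1b (0.988) and Ptpn6 (0.986). Itgam was closest to Dtx4 (0.982), Fli1 (0.981) and Capzb (0.978), and C3ar1 to Atp6ap2 (0.959), Cd86 (0.957) and Cd9 (0.952). C4b was closest to Atp9a (0.905), Tanc1 (0.902) and Myof (0.902), C3 to Lgals3bp (0.955), Parp10 (0.929) and Mfsd12 (0.92), and C5ar1 to Yipf3 (0.87), Slc46a1 (0.855) and AC154218.2 (0.849). None of these nearest genes was shared between members.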

How the data were processed

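The authors aligned reads of SMART-Seq libraries to GRCm38 with STAR and deposited featureCounts counts per Ensembl gene, whole numbers without normalization. Their methods name non-directional libraries made with a NEB kit, without stating whether the microglia libraries are meant. Genes overlapping on opposite strands are therefore uncertain. The labels name GRCh38 and the methods a UCSC gene model, but all 55536 identifiers were found in GENCODE M21 (GRCm38), which gave symbols and positions. The table holds 2 columns without a labelled sample, not used here. Groups were taken from the labels. In R 4.3.3, edgeR 4.0.16 (TMM, quasi-likelihood test) was run in each comparison on genes reaching 1 CPM in any of its samples, with Benjamini-Hochberg adjustment over all genes and an FDR of 0.1, on the samples of the groups compared (all 4 groups for the interaction). DESeq2 1.42.0 (Wald test) was an alternative. The others were different scaling, filtering, threshold and fitting, terms for sex or non-microglial markers, and each sample left out. Not planned at first were fits with the microglial marker level as a term and fits without the libraries highest in mitochondrial counts. Fits with C4b and C4a counts summed were not planned either. The main comparisons had no covariate. The scripts were tested on simulated counts with known changes. The genes named were the 9 members and Tyrobp, other complement genes with an unadjusted p under 0.05 in any comparison plus C4a, and the 3 genes most like each member. Genes given as examples of undetected, low or abundant complement genes, and Cfp beside them, were named after their values were seen. The length of the coding transcript used for levels was also chosen after they were seen. The members and lists were chosen with earlier results of these data known. Samples are separate by their labels, and p values set the difference between groups against the spread between samples. No pair was a copy: Q175;Tyrobp-/- replicates 13 and 16, the most alike (r = 0.983), had a chi-square over its degrees of freedom of 15.4. Not every gene of the lists is named, and a result of the naming rule is not reported here. Reads without molecular identifiers are not independent molecules.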

Additional observations from a re-analysis of the deposited data

Results flagged for a closer look

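C1qc in Q175;Tyrobp-/- replicate 5, at 18280 normalized counts, lay below the other 4 samples of its group, which were between 24250 and 26440, with a gap to the nearest of 0.731 of the whole range of the group. This was the only value to stand apart among 27 sets (9 genes in the 3 groups of 5 samples), where chance sets apart about 1 in 20. The same sample had the lowest microglial marker level of its group, 18290, and the highest astrocyte marker level, 1873. Their part in the value was not tested.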

How the results depend on the processing

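No paired analysis was possible because the groups compared share no replicate numbers. With edgeR no member was called under other scaling, filters, an FDR of 0.05, robust fitting, a term for sex or for non-microglial markers, 1 fit over all 4 groups, or without any 1 sample. In Q175;Tyrobp-/- against Tyrobp-/-, DESeq2 called 1 member (C3ar1, -0.647), and the microglial marker level as a term, an alternative added after seeing the data, called 3 (C1qa -0.399, C1qc -0.362 and C3ar1 -0.658), where that fit called 15.8% of all genes. The median log2 fold change of the 9 genes in Q175 against WT was -0.245 with a term for markers of other cells, in place of 0.02. It was -0.303 with the microglial marker level as a term and between -0.166 and 0.164 with 1 sample left out, in place of 0.02, in Q175;Tyrobp-/- against Q175. The cause was not tested.

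The directions of C4b, C3ar1 and Itgam in Q175;Tyrobp-/- against Q175, of C4b, C5ar1 and the C1q chains in Tyrobp-/- against WT, and of C3ar1 and the C1q chains in Q175;Tyrobp-/- against Tyrobp-/- held under every alternative run. The log2 fold changes of the opposite sign to those given belonged to values that were not called. With DESeq2 these were C1qa -0.00595 and Itgam -0.0337 in Q175 against WT. With DESeq2's size factors these were C1qa -0.00597 and Itgam -0.0331 in Q175 against WT, and C3 -0.00261 for the interaction. With total counts as scaling these were C1qa -0.056 and Itgam -0.087 in Q175 against WT, and C1qa 0.0315 and C1qc 0.101 in Q175;Tyrobp-/- against Q175. Without the filter on low counts these were C1qa -0.0143 and Itgam -0.0478 in Q175 against WT, and C3 -0.0588 for the interaction. With sex as a term these were C1qa -0.225, C1qb -0.055, C1qc -0.111, Itgam -0.104 and C5ar1 -0.193 in Q175 against WT, and C1qa 0.00184 in Q175;Tyrobp-/- against Q175, and C3 -0.0814 and C3ar1 0.165 in Tyrobp-/- against WT. With a term for markers of other cells these were C1qa -0.245, C1qb -0.0583, C1qc -0.249, C4b -0.268, Itgb2 0.0594 and C5ar1 -0.228 in Q175 against WT, and C3 -0.0869 in Q175;Tyrobp-/- against Q175, and C3 -0.445 and Itgb2 -0.0175 for the interaction. With the microglial marker level as a term these were Itgb2 0.138 in Q175 against WT, and C1qb -0.269, C3 -0.489, Itgb2 -0.0973 and C5ar1 -0.177 in Q175;Tyrobp-/- against Q175, and C3 -0.748, Itgam -0.305, Itgb2 -0.441 and C3ar1 0.3 in Tyrobp-/- against WT, and C3 -0.0284 for the interaction. In 1 fit over all 4 groups these were C1qa -0.0133 and Itgam -0.0279 in Q175 against WT. Without the 2 libraries highest in mitochondrial counts these were Itgb2 0.0161 in Q175 against WT, and C5ar1 -0.0039 in Q175;Tyrobp-/- against Q175, and Itgam -0.189 and Itgb2 -0.16 in Q175;Tyrobp-/- against Tyrobp-/-, and C3 -0.353, Itgam -0.305 and Itgb2 -0.192 for the interaction. With 1 sample left out at a time, the values that took either sign were C1qa between -0.155 and 0.15, C1qb between -0.0165 and 0.328, C1qc between -0.0935 and 0.266, C3 between -0.833 and 0.287, Itgam between -0.173 and 0.205, Itgb2 between -0.222 and 0.156 and C5ar1 between -0.143 and 0.235 in Q175 against WT, C1qa between -0.22 and 0.0392, C1qb between -0.138 and 0.164, C1qc between -0.188 and 0.129, C3 between -0.26 and 0.417 and C5ar1 between -0.087 and 0.256 in Q175;Tyrobp-/- against Q175, C3 between -0.315 and 0.851, Itgb2 between -0.0494 and 0.404 and C3ar1 between -0.217 and 0.09 in Tyrobp-/- against WT, C4b between -0.0668 and 0.949, Itgam between -0.189 and 0.451 and Itgb2 between -0.16 and 0.325 in Q175;Tyrobp-/- against Tyrobp-/-, C3 between -0.754 and 0.448, C4b between -0.234 and 0.754, Itgam between -0.159 and 0.479 and Itgb2 between -0.0817 and 0.403 for the interaction. Scaling by total counts also moved the median of all genes from -0.05 to 0.08 in Q175;Tyrobp-/- against Q175 and from 0.04 to 0.15 for the interaction.

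The group of 3 Tyrobp-/- samples, of which replicate 20 stands apart, limits both comparisons that use it. C3 rests on few counts. The sexes are unevenly spread over the groups.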
